A study of Mus musculus with 4 samples.

Results

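Blood stem cells and the endothelium that lines vessels share a set of surface proteins for adhesion and guidance. Followed here were 10 genes of that kind: *Robo4*, *Tie1*, *Tek*, *Eng*, *Esam*, *Jam2*, *Jam3*, *Cdh5*, *Pecam1* and *Emcn*. They were chosen by name for what they encode, with earlier results of these data known. All 10 were among the 18598 genes with values, and 9 of them were among the 14858 genes with a mean normalized count of at least 10, which were the genes tested. *Cdh5* stayed below that level. The values came from RNA sequencing of LSK cells, the lineage-negative, Sca1+, c-Kit+ fraction of mouse bone marrow that holds the stem cells together with multipotent progenitors. The question was which transcripts depend on BPTF, the largest subunit of the chromatin remodeler NURF.

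There were 2 control and 2 Bptf-cKO libraries, all from C57BL/6 mice about 3 months old, and each library pooled the marrow of 5 mice. Both groups carried the floxed *Bptf* allele (Bptf f/f) and both received 3 injections of pIpC, a double-stranded RNA that triggers an interferon response, so only the Bptf-cKO mice (genotype Bptf -/-) also carried the cre transgene. The cre is driven by the interferon-inducible Mx1 promoter, which is not restricted to blood cells. LSK cells were sorted 10 days after induction. A Bptf-cKO library reads the progeny of recombined stem and progenitor cells in a marrow whose other cells may also have recombined.

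The vascular genes of stem cells fall into a few working groups. Robo4 is a roundabout-family guidance receptor and a known homing molecule of stem cells, Tek (also called Tie2) is the angiopoietin receptor, Tie1 is its partner receptor, and endoglin (Eng) is a co-receptor for ligands of the TGF-beta and BMP family. Esam, Jam2, Jam3, Pecam1 and VE-cadherin (Cdh5) sit at contacts between cells, and endomucin (Emcn) is a sialomucin that coats the surface. Esam, Tek, endomucin and endoglin are used as antigens for isolating stem cells, whereas VE-cadherin marks the endothelium of the adult and is largely lost from adult blood stem cells.

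The start regions of 3 receptor genes are shown because 1 of them passed the test and the other two did not. RefSeq (GRCm38.p6) held a promoter for 5 of the 10 genes, *Robo4*, *Tie1*, *Tek*, *Eng* and *Emcn*, and motifs were searched in the 250 bases before the RefSeq transcription start. GENCODE places the start of *Robo4*, *Tie1* and *Emcn* further upstream, inside that window, by 75, 212 and 11 bases. The sequences are therefore cut at whichever start comes first and read 5′ to 3′ on the gene's strand. Capitals mark each CAGGAA or its reverse complement TTCCTG, a form of the sites with a GGAA core that ETS-family factors bind. Other forms with that core were not searched, and the *Eng* stretch, without capitals, holds GGAA and its reverse complement TTCC. The stretches shown cover chr9:37401722-37401896 for *Robo4*, chr4:94739039-94739288 for *Tek* and chr2:32646345-32646594 for *Eng*, all on the plus strand.
Robo4: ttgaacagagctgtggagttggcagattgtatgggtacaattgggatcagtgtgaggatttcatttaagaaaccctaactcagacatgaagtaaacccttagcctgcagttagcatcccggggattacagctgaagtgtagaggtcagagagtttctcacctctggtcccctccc
Tek: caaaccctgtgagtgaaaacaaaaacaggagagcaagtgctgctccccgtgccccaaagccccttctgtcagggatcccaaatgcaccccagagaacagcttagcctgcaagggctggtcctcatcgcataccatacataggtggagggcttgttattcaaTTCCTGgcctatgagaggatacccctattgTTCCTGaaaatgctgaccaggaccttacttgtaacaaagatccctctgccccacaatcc
Eng: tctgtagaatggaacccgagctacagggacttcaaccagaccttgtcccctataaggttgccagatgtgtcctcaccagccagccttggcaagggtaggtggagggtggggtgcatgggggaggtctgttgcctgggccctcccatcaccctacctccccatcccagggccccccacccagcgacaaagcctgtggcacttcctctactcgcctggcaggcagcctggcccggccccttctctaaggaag

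In the full windows this motif, CAGGAA on either strand, was present 1 time for *Robo4*, 1 time for *Tie1*, 2 times for *Tek*, 2 times for *Emcn* and 0 times for *Eng*. The matches of *Robo4* and *Tie1* lie past the GENCODE start, within the annotated gene, so the *Robo4* stretch shown has no capitals. Across 32851 promoter windows of the same length, 25.7% held it on either strand. GATAA, the core that GATA factors bind, was in 0 of the 5 windows and in 22.6% of all windows. The E-box CANNTG was in all 5 windows and in 66.2% of all windows, and TGANTCA, of the AP-1 kind, was in 0 of the 5 and in 6.75% of all. These matches describe letters in the windows and were not tested as binding sites.

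The 4 libraries held 14091054 to 30134742 reads on the listed genes, and the replicate 1 libraries of both groups were the deeper ones. *Bptf*, the gene targeted, had 5520 and 5850 normalized counts in the controls and 3398 and 3320 in the Bptf-cKO libraries (log2 fold change -0.76, limma adjusted p = 0.0439), a count that includes the exons outside the deleted one. *Kit*, which defines the gate, differed little (log2 fold change -0.01, standard error 0.133), and *Ly6a*, which encodes Sca1, overlapped between the groups. The replicate 2 library of each group stood apart from replicate 1. *Xist* had 15675 and 11843 normalized counts there against 0.775 and 3.25. With the Y-linked genes *Ddx3y*, *Eif2s3y*, *Kdm5d* and *Uty* added, the sums were 17017 and 14372 against 5134 and 5055. Every library thus also held Y-linked transcripts. In replicate 2, 7 transcripts typical of pluripotent cells summed to 945 and 1201 against 3.88 and 5.20 in replicate 1. For this reason the differences within the replicate 1 libraries and within the replicate 2 libraries are given for the genes of the set that were tested. Because these are bulk samples, fewer cells of a type and less RNA per cell cannot be told apart.

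*Robo4* was the only gene of the set whose fall in Bptf-cKO LSK cells passed the limma test, at 31.1% of the control mean. It lies on chromosome 9 at 37401897 to 37415115 (plus strand, GRCm38). Its normalized counts were 1036 and 1166 in the controls and 369 and 315 in the Bptf-cKO libraries. Both Bptf-cKO values were far under both control values, and the gap between groups was several times the gap within either. The log2 fold change was -1.69 with a standard error of 0.149 (limma adjusted p = 0.0232), and it was -1.49 between the replicate 1 libraries and -1.89 between the replicate 2 libraries. *Robo4* ranked 252 by size of fall among the 14858 genes tested. The call held without control replicate 1 but not without control replicate 2 or either Bptf-cKO library. The log2 fold change stayed between -1.80 and -1.57 whichever library was left out. The call was also lost, with a limma adjusted p of 0.118, when limma's variance prior was held constant over expression level.

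The angiopoietin receptors did not pass the test. *Tie1* (chromosome 4, 118471191 to 118490061, minus strand) had 3675 and 4654 normalized counts in the controls and 3315 and 3763 in the Bptf-cKO libraries. The groups overlapped, and the log2 fold change was -0.23 with a standard error of 0.147 (limma adjusted p = 0.527). *Tek* (chromosome 4, 94739289 to 94874976, plus strand) had 613 and 814 normalized counts in the controls against 522 and 611. The higher Bptf-cKO value lay just under the lower control value, so the groups were apart by less than the spread within either, and the log2 fold change was -0.32 with a standard error of 0.186 (limma adjusted p = 0.48). Both receptors were lower in Bptf-cKO cells in each replicate number, by -0.15 and -0.31 for *Tie1* and by -0.23 and -0.41 for *Tek* on the log2 scale.

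*Eng* (chromosome 2, 32646595 to 32682669, plus strand) was the most abundant gene of the set. Its normalized counts were 5254 and 5574 in the controls and 3939 and 4703 in the Bptf-cKO libraries, both below both controls. The log2 fold change was -0.33 with a standard error of 0.119, and the limma p of 0.0365 rose to 0.281 after adjustment. The difference was -0.42 within the replicate 1 libraries and -0.25 within the replicate 2 libraries. Antisense *Fpgs* covers 1.51% of its exon bases, so few of its reads could belong to that gene.

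Among the junction molecules, *Esam* and *Jam3* were lower by a margin like that of *Robo4* but did not pass the test across all genes. *Esam* (chromosome 9, 37528078 to 37538319, plus strand), an immunoglobulin-domain protein of tight junctions and a marker used to sort stem cells, had 944 and 1558 normalized counts in the controls. In the Bptf-cKO libraries it had 441 and 464. Both Bptf-cKO values lay far below the lower control value, while the controls themselves differed by more than the Bptf-cKO libraries did. The log2 fold change was -1.42 with a standard error of 0.250 (limma adjusted p = 0.0891), and it was -1.10 within the replicate 1 libraries and -1.74 within the replicate 2 libraries.

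*Jam3* (chromosome 9, 27097384 to 27155421, minus strand), a junctional adhesion molecule that binds Jam2 and leukocyte integrins, had 63.6 and 173 normalized counts in the controls and 25.3 and 15.5 in the Bptf-cKO libraries. These rest on 82 and 125 control reads and 39 and 11 Bptf-cKO reads. The groups did not overlap, but the controls differed from each other by more normalized counts than control replicate 1 differed from the Bptf-cKO libraries. The log2 fold change was -2.35 with a standard error of 0.580 (limma adjusted p = 0.161), -1.29 within the replicate 1 libraries and -3.40 within the replicate 2 libraries. An annotated antisense transcript, *Gm48796*, overlaps 36.2% of the *Jam3* exon bases, and whether reads were counted by strand is not given in the sources used here, so the reads of that stretch cannot be assigned to either strand.

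The remaining junction genes showed no difference beyond the spread between libraries. *Jam2* (chromosome 16, 84774123 to 84825928, plus strand), the binding partner of Jam3, had 52.7 and 112 normalized counts in the controls and 55.9 and 70.5 in the Bptf-cKO libraries. Its log2 fold change was -0.29 with a standard error of 0.439 (limma adjusted p = 0.819), and the difference was 0.083 within the replicate 1 libraries and -0.66 within the replicate 2 libraries. *Pecam1* (chromosome 11, 106654217 to 106750628, minus strand), an inhibitory adhesion receptor of blood and endothelial cells, had 2725 and 1659 normalized counts in the controls and 2466 and 2423 in the Bptf-cKO libraries. Both Bptf-cKO values lay between the controls. Its log2 fold change was 0.20 with a standard error of 0.238 (limma adjusted p = 0.752), and the difference was -0.14 within the replicate 1 libraries and 0.55 within the replicate 2 libraries.

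*Cdh5* (chromosome 8, 104101625 to 104144511, plus strand), which encodes the cadherin that defines endothelium, was near the detection limit. It had 4 and 7 reads in the controls and 6 and 4 in the Bptf-cKO libraries, against a floor of 3 reads per library. No fold change is given for it. *Emcn* (chromosome 3, 137341067 to 137432185, plus strand) had 366 and 550.2 normalized counts in the controls and 381 and 437 in the Bptf-cKO libraries, which lay between the controls. Its log2 fold change was -0.14 with a standard error of 0.234 (limma adjusted p = 0.843), with 0.058 within the replicate 1 libraries and -0.33 within the replicate 2 libraries.

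**Figure D1:**
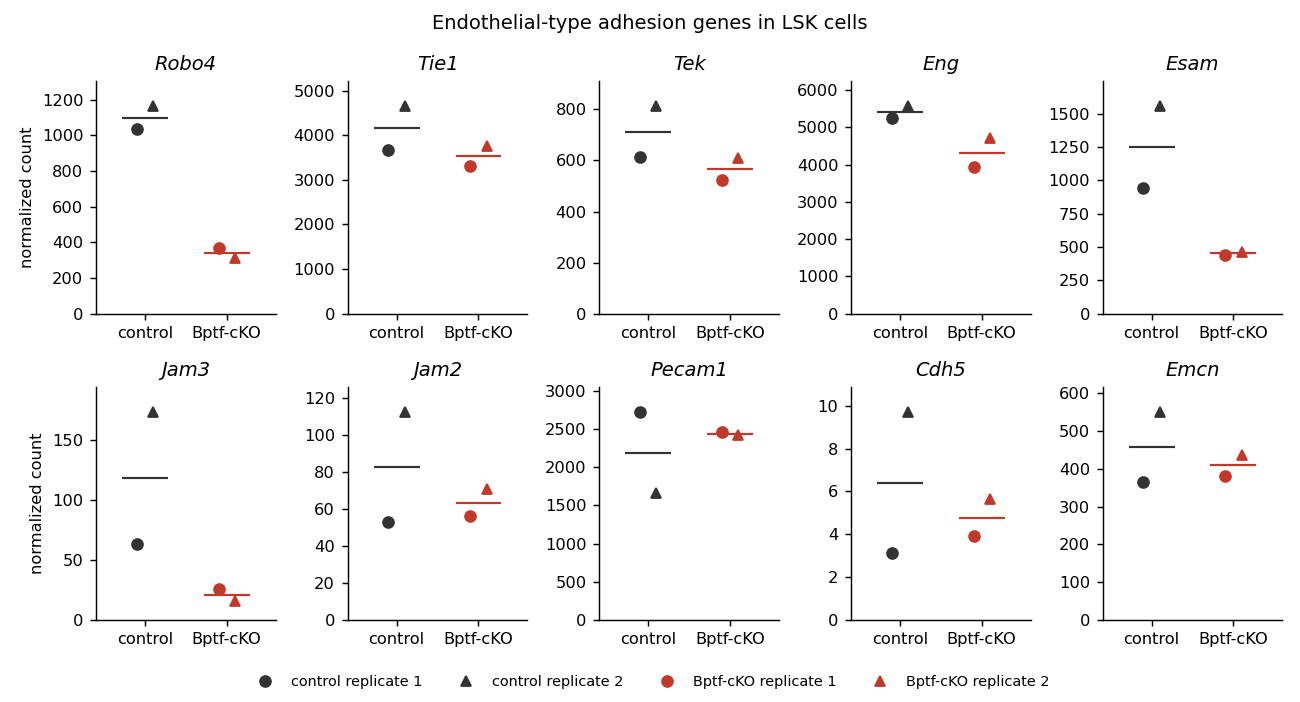
Normalized count (y axis, linear, from 0) of the 10 genes in each library, with controls in black and Bptf-cKO in red. Circles are replicate 1, triangles replicate 2 and lines the mean of the 2 libraries. The *Robo4*, *Esam* and *Jam3* points of the Bptf-cKO libraries lie well below the controls, while *Tie1*, *Jam2*, *Pecam1*, *Cdh5* and *Emcn* overlap.

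Across the set, 1 of the 9 genes tested was called lower and 0 were called higher, where a call needed an adjusted p below 0.05 together with a change of more than 1.5-fold. The same rule called 0.37% of all genes lower and 0.37% higher. At an unadjusted limma p under 0.05, 4 genes of the set were lower (*Robo4*, *Esam*, *Jam3* and *Eng*) and 0 higher, against 8.96% of all genes lower and 6.79% higher. Both Bptf-cKO libraries lay below both controls for 5 genes, the same 4 and *Tek*, and above both for 0, whereas over all genes the shares were 23.8% below and 23.2% above. The median log2 fold change of the 9 genes was -0.32, beside 0.0010 over all genes tested. edgeR also called 1 gene of the set lower and 0 higher, with 0.303% and 0.33% of all genes called. DESeq2, which called 2.95% of all genes lower and 1.7% higher, called *Robo4*, *Esam* and *Jam3*, with adjusted p of 1.81e-14, 1.70e-05 and 0.00833. Over the 17 alternatives with a test, the adjusted p ran up to 0.186 for *Robo4*, 0.384 for *Esam* and 0.649 for *Jam3*.

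**Figure D2:**
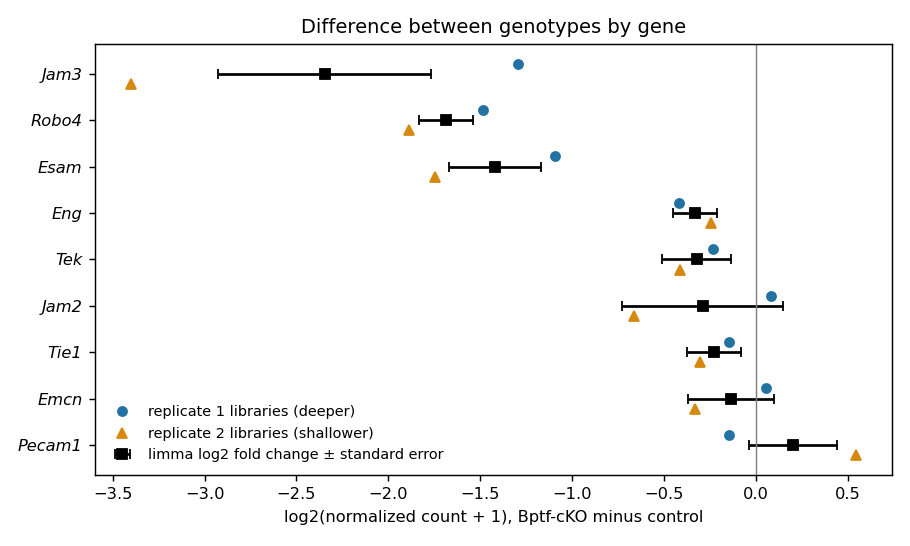
Difference between Bptf-cKO and control on the log2(normalized count + 1) scale (x axis) for the 9 genes tested (y axis). Squares are limma estimates with their standard error, circles the difference within the deeper replicate 1 libraries and triangles that within the shallower replicate 2 libraries. *Jam3*, *Robo4* and *Esam* lie between -2.35 and -1.42, and the other 6 lie between -0.33 and 0.20.

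The order of the genes by level changed with the genotype. Per kilobase of exon, the control order was *Eng* (mean 1337 normalized counts per kb), *Tie1* (847), *Esam* (436), *Pecam1* (352), *Robo4* (208), *Tek* (151), *Emcn* (84.7), *Jam3* (37.0), *Jam2* (13.6) and *Cdh5* (1.52). The control values of *Esam* and *Pecam1* overlapped, and the ranges of the other neighbours did not. In Bptf-cKO cells the order was *Eng* (1067), *Tie1* (720), *Pecam1* (393), *Esam* (158), *Tek* (120), *Emcn* (75.6), *Robo4* (64.5), *Jam2* (10.5), *Jam3* (6.39) and *Cdh5* (1.14), and the ranges of neighbours did not overlap. *Robo4* thus stood above *Tek* and *Emcn* in both control libraries and below both genes in both Bptf-cKO libraries, and *Jam3* moved from above to below *Jam2*. In Bptf-cKO replicate 1 *Robo4* and *Emcn* were nearly level, at 69.6 and 70.4 per kb. The order between genes also depends on the GENCODE exon lengths, and the annotation used for counting is not given.

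**Figure D3:**
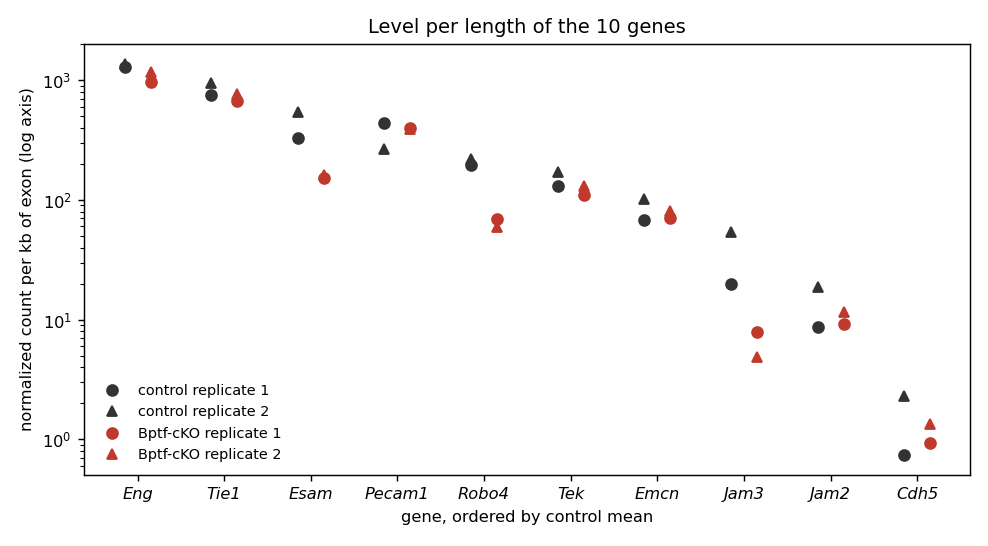
Normalized count per kb of exon (y axis, log scale) of the 10 genes, ordered by the control mean, with controls in black, Bptf-cKO in red, replicate 1 as circles and replicate 2 as triangles. The levels span 1337 for *Eng* to 1.52 for *Cdh5* in controls, and the red points of *Robo4* fall under those of *Tek* and, by little in replicate 1, of *Emcn*.

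Several of these genes are stem cell antigens, and markers of long-term stem cells were also lower in the Bptf-cKO libraries. The summed normalized counts of 8 such markers, most of them from *Hlf*, were 11908 and 17531 in the controls and 8584 and 10950 in the Bptf-cKO libraries, 66.4% of the control mean. All 8 had a negative log2 fold change (median -0.73), 5 at an unadjusted limma p under 0.05, and 0 were called after adjustment by limma or edgeR, with 1 called lower by DESeq2. Relative to that sum, *Robo4* was at 46.8% of the control ratio, *Esam* at 55.8% and *Jam3* at 28.7%, and for each of them both Bptf-cKO libraries stayed below both controls. *Tie1* was at 127%, *Tek* at 119%, *Jam2* at 120% and *Emcn* at 136% of the control ratio, with both Bptf-cKO libraries above both controls, and *Eng*, *Pecam1* and *Cdh5* overlapped. The marker sum itself was at 66.4% of the control mean, so a gene with an unchanged count would also have a raised ratio. The counts of *Tie1*, *Tek*, *Jam2* and *Emcn* were at 85.0%, 79.4%, 76.6% and 89.3% of their control means. Their higher ratios therefore reflect mean counts that fell less than the marker sum, not counts that rose. The ratios are descriptions without a test, and the part of stem cell number in the fall of *Robo4* was not tested.

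**Figure D4:**
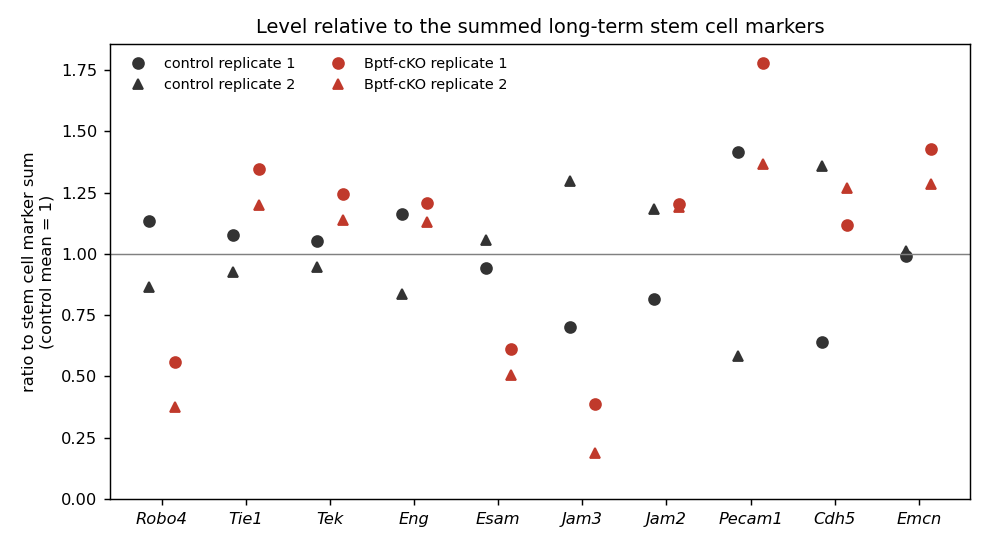
Ratio of each gene to the summed long-term stem cell markers in the same library (y axis, control mean set to 1), with controls in black, Bptf-cKO in red, replicate 1 as circles and replicate 2 as triangles. The red points of *Robo4*, *Esam* and *Jam3* lie below both black points, and those of *Tie1*, *Tek*, *Jam2* and *Emcn* lie above. Because the marker sum fell, the red points of a gene with an unchanged count would also lie above.

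Markers of endothelial cells themselves were checked because such cells express the genes of the set. The summed level of the 10 listed endothelial markers ran from 2181 to 2510 normalized counts in the controls and from 1355 to 1671 in the Bptf-cKO libraries, 64.5% of the control mean. Most of that sum was *Egfl7*, which stem and progenitor cells also express, with 1877 and 2123 normalized counts in the controls and 1106 and 1397 in the Bptf-cKO libraries. Of the 9 endothelial markers tested, 1 was lower at an unadjusted limma p under 0.05, limma and edgeR called 0 and DESeq2 called 1 lower. Of these 9, 8 had a negative log2 fold change and the median was -0.68. The exception was *Fabp4*, at 6 and 0 reads in the controls and 12 and 36 in the Bptf-cKO libraries. The defining endothelial genes rested on few reads: *Plvap* had 36 to 154 in a library, *Cdh5* at most 7, *Kdr* 13 to 40, *Sox18* 16 to 34, and *Cldn5* 13 and 14 in the controls with 1 and 0 in the Bptf-cKO libraries. The 5 listed stromal markers, mostly *Pdgfrb*, summed to 588 to 1967 in the controls and 824 to 1603 in the Bptf-cKO libraries. The summed megakaryocyte markers, of interest because platelets carry Esam and Pecam1, were 6278 and 3651 in the controls and 5340.4 and 4350 in the Bptf-cKO libraries. Of the 7 tested, *Pf4* and *Treml1* were lower at an unadjusted limma p under 0.05, limma, edgeR and DESeq2 called 0, and the others overlapped between the groups.

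*Robo4* and *Esam* are near neighbours on chromosome 9, with 113 kb between them, and 4 annotated genes lie in that gap, of which 2 were tested. *Robo3*, whose end lies 0.553 kb beyond that of *Robo4*, had 288 and 83.2 normalized counts in the controls and 120 and 48.0 in the Bptf-cKO libraries. The groups overlapped (log2 fold change -1.02, standard error 0.714, limma adjusted p = 0.564). The *Robo3* difference was -1.26 within the replicate 1 libraries and -0.78 within the replicate 2 libraries. *Msantd2*, 3.45 kb before *Esam*, had 738 and 671 against 611 and 553 (log2 fold change -0.27, limma adjusted p = 0.409). The tested gene outside *Robo4*, *Ccdc15*, had a log2 fold change of 0.15 and the one outside *Esam*, *Vsig2*, of -0.24, with limma adjusted p of 0.834 and 0.761.

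The genes whose values over the 4 libraries were closest to those of *Robo4* were found by Euclidean distance of centred log2 values among 10814 genes with a mean of at least 100. They were *Tmcc2* (distance 0.087), *Zfp827* (0.106), *C1ra* (0.162), *Ifitm1* (0.178) and *Zfp618* (0.178). *Esam* ranked 71 at a distance of 0.518, and the other genes of the set ranked from 1412 (*Eng*) to 9273 (*Pecam1*). With 4 points that share 2 libraries of each kind this is a description, and it was not tested.

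Partners of the 10 genes were read from 8 lists of 110 genes, of which 101 were listed and 95 tested. By limma or edgeR 0 of the 95 were called, and at an unadjusted limma p under 0.05, 17 were lower and 7 higher, against 8.96% and 6.79% of all genes. DESeq2 called 4 lower and 2 higher, against 2.95% and 1.7%. Both Bptf-cKO libraries lay below both controls for 32 and above both for 18, against 23.8% and 23.2%, and the median log2 fold change was -0.13. The counts of the single lists are to be read against the same shares of all genes. From each list the 2 genes with the largest difference were named, among those with a mean of at least 100 and no overlap between the groups, and genes named beyond these were chosen after their values were seen.

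**Figure D5:**
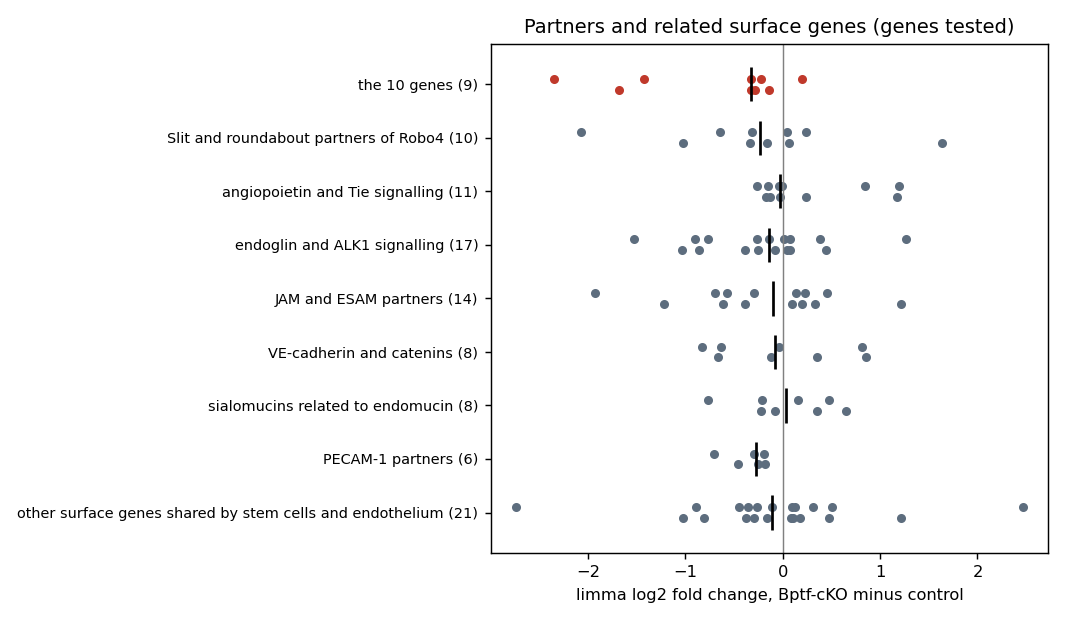
Limma log2 fold change (x axis) of each gene tested, by list (y axis, number tested in brackets). Each point is 1 gene, black bars are medians and red points are the 10 genes of interest, of which 9 were tested. The median is -0.32 for the red points and lies between -0.27 and 0.04 for the lists.

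Of the Slit ligands, roundabout receptors and their effectors, 10 were tested, with 3 below and 2 above both controls and a median of -0.24. *Srgap3*, a GTPase-activating protein that acts downstream of roundabout receptors, had 826 and 915 normalized counts in the controls and 536 and 576 in the Bptf-cKO libraries (log2 fold change -0.65, limma adjusted p = 0.11). *Git1*, a GTPase-activating protein for ARF GTPases that binds paxillin, had 3270.2 and 3066 against 3798 and 3666 (log2 fold change 0.24, limma adjusted p = 0.312). The ligands themselves were scarce: *Slit1* ran from 8.32 to 77.5 normalized counts and *Slit2* from 8.45 to 22.6. *Robo1* was also low, with 20.2 and 36.0 in the controls and 1.95 and 14.1 in the Bptf-cKO libraries.

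For the angiopoietin pathway, 11 genes were tested, with 1 below and 3 above both controls and a median of -0.02. The ligand *Angpt1* was abundant and nearly level, with 8931 and 9286 normalized counts in the controls and 9540.2 and 8621 in the Bptf-cKO libraries (log2 fold change -0.01, limma adjusted p = 0.987). The adaptor *Grb2* had a log2 fold change of 0.24 and the NF-kappaB regulator *Tnip2* of -0.15, and neither passed the test (limma adjusted p 0.374 and 0.652).

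Of the endoglin and ALK1 pathway, 17 genes were tested, with 10 below and 2 above both controls, 5 lower and 0 higher at an unadjusted limma p under 0.05, and a median of -0.14. *Smad7*, an inhibitor of the pathway, had 781 and 603 normalized counts in the controls and 481 and 295 in the Bptf-cKO libraries (log2 fold change -0.86, limma adjusted p = 0.245). *Id2*, which encodes an inhibitor of E-proteins, had 129 and 132 in the controls and 170 and 586 in the Bptf-cKO libraries (log2 fold change 1.27, limma adjusted p = 0.380), so its size rested on Bptf-cKO replicate 2. *Id3*, below the level set for named genes, had 138 and 83.2 in the controls and 37.7 and 35.3 in the Bptf-cKO libraries. Its log2 fold change of -1.53 was the lowest of this list (limma adjusted p = 0.147). It was the 1 gene of the list that DESeq2 called (DESeq2 adjusted p = 0.0344). *Id1* overlapped between the groups (log2 fold change 0.38). The co-working receptor *Acvrl1* (ALK1) was low, with 20.8 to 42.6 normalized counts in the controls and 13.0 to 18.3 in the Bptf-cKO libraries.

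The partners of JAM proteins and Esam, integrins and scaffold proteins of tight junctions, gave 14 tested genes, with 4 below and 3 above both controls and a median of -0.10. *Afdn*, which encodes afadin, a scaffold that binds JAM tails and actin, had 728 and 1217 normalized counts in the controls and 249 and 243 in the Bptf-cKO libraries. Both Bptf-cKO values were far below the controls (log2 fold change -1.93, standard error 0.262, limma adjusted p = 0.057). *Itgal*, the alpha chain of the leukocyte integrin LFA-1, had 2911 and 1390.1 in the controls and 5169 and 4231 in the Bptf-cKO libraries, a difference in the other direction (log2 fold change 1.22, limma adjusted p = 0.208). *F11r*, the third JAM, had 664 and 974 in the controls and 487 and 567 in the Bptf-cKO libraries (log2 fold change -0.61, limma adjusted p = 0.278).

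The cadherin partners gave 8 tested genes, with 2 below and 1 above both controls and a median of -0.08. *Ctnnd1* (p120-catenin) had 389 and 431 normalized counts in the controls against 204 and 326, and *Jup* (plakoglobin) had 574 and 453 against 338 and 319 (log2 fold change -0.66 and -0.63, limma adjusted p 0.311 and 0.196). The sialomucins gave 8 tested genes, with 1 below and 2 above both controls and a median of 0.04. *Podxl*, a relative of CD34, had 422 and 725 against 274 and 382, and *Spn* (CD43) had 12477 and 11458 against 14185 and 16333 (log2 fold change -0.77 and 0.35, limma adjusted p 0.328 and 0.251). *Cd34* itself overlapped between the groups (log2 fold change -0.21). The PECAM-1 partners gave 6 tested genes, with 4 below and 0 above both controls and a median of -0.27. *Plcg1*, a phospholipase, and *Cd99l2*, an adhesion molecule of leukocyte passage, had log2 fold changes of -0.30 and -0.25 (limma adjusted p 0.305 and 0.465).

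Other surface genes that stem cells share with endothelium gave 21 tested genes, with 7 below and 5 above both controls, 5 lower and 2 higher at an unadjusted limma p under 0.05, and a median of -0.11. *Nrp1*, a co-receptor for semaphorins and VEGF, was higher in the Bptf-cKO libraries, with 81.4 and 55.4 normalized counts in the controls and 278 and 511 in the Bptf-cKO libraries (log2 fold change 2.47, standard error 0.373, limma adjusted p = 0.0673). *Procr*, the endothelial protein C receptor that is also among the 8 long-term stem cell markers, had 750 and 1289 against 510.2 and 614 (log2 fold change -0.81, limma adjusted p = 0.263). *Cd200*, a surface ligand that restrains immune cells, had 94.6 and 112 against 18.8 and 11.3 (log2 fold change -2.74, limma adjusted p = 0.066). The direction in this list was therefore mixed at the single-gene level, and 0 of its genes were called by limma or edgeR, with 1 lower and 1 higher called by DESeq2.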

How the data were processed

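LSK cells of 2 control and 2 Bptf-cKO pools of 5 mice were profiled by RNA sequencing. Per the submitters' processing notes the tools were HISAT2, featureCounts and DESeq2 with GRCm38/mm10. Counting settings, strandedness and annotation are not given in the sources used here. The authors deposited 1 table with a size-factor-normalized count signal per library, alongside columns of their own comparison (a mean, a log2 fold change with its error, a test score, a p-value and an adjusted p-value), which were not used.

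Each deposited signal value was a whole multiple of what 1 read is worth (100% of values within 0.01 of a whole read), so reads were recovered and gave the depth per library (14091054 to 30134742). All listed genes had at least 11 reads over the 4 libraries. Genes with a mean of at least 10 were tested by limma 3.58.1 (R 4.3.3) on log2(normalized count + 1) with an intensity trend and genotype as the sole term. A gene was called at a Benjamini-Hochberg adjusted p under 0.05 over all 14858 genes and a fold above 1.5, and fold changes on this scale understate those of low genes. edgeR 4.0.16 and DESeq2 1.42.0 on the recovered reads, other pseudocounts (0.5 and 10), filters, centring and each library left out were alternatives. The main limma fit, limma with a block for replicate number, edgeR and DESeq2 were tested on simulated data without a replicate effect. The other alternatives were not simulated. An exact permutation test of 2 against 2 libraries cannot go below p = 0.333 and was not used. Positions and exon lengths came from GENCODE vM21. One neighbouring gene is not reported here.

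The 10 genes, the partner lists, the marker lists (long-term stem cell, endothelial, stromal, megakaryocyte, myeloid, erythroid, lymphoid-primed and lineage) and the rule for named genes (for each list the 2 largest differences at a mean of at least 100 without overlap) were chosen with earlier results of these data known. The labels speak of experimental replicates, each a pool, so the p-values rest on the spread between pools. That spread includes what differed by replicate number in both groups, and limma draws it towards the spread of genes with a similar level.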

Additional observations from a re-analysis of the deposited data

How the results depend on the processing

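The counts of calls moved most with the model. Genes called lower, 55 here, numbered 0 without the intensity trend, 438 with DESeq2, and 0 to 41 with 1 library left out. Genes called higher, also 55, numbered 2, 252, and 1 to 76 under the same alternatives. Of the 10 genes, 1 was called lower. The number was 0 without the trend, 3 with DESeq2 and 0 to 2 with 1 library left out, where *Robo4* and *Esam* passed without control replicate 1 and none passed without any other library. The number called higher was 0 throughout. The causes were not tested.

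The replicate numbers are shared between the groups, but nothing in the labels ties them to a litter or day, so the numbers were not taken as pairs. The correlation of same-numbered deviations was 0.452 over tested genes and 0.638 over genes with a mean of at least 100, and the second principal component (38.6% of variance) separated replicate 1 from replicate 2 in both groups. With the replicate number as a block, limma called 845 genes lower and 454 higher, edgeR called 854 and 457, and both called 3 of the 10 genes lower (*Robo4*, *Esam* and *Jam3*, limma adjusted p 1.21e-05, 9.46e-05 and 0.00631).

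Signs turned for 3 genes near zero, without control replicate 2 and within replicate 1 alone: *Jam2* to 0.25 and 0.083, *Emcn* to 0.16 and 0.058, and *Pecam1* to -0.16 and -0.14. With 1 library left out these ran from -0.83 to 0.25, from -0.43 to 0.16 and from -0.16 to 0.56. The within-replicate values were chosen after seeing the data. Across all alternatives the log2 fold change stayed between -1.89 and -1.49 for *Robo4*, -1.78 and -1.06 for *Esam*, and -3.40 and -1.29 for *Jam3*. *Jam3* rested on 11 to 125 reads per library.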

Other observations

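Markers of the other cells in the LSK gate also differed between libraries. The 6 erythroid progenitor markers summed to 3296 and 2398 normalized counts in the controls and 946 and 939.7 in the Bptf-cKO libraries, 33.1% of the control mean, and all 6 lay below both controls. Limma called 1 of them lower, the erythropoietin receptor gene *Epor* (log2 fold change -1.96, limma adjusted p = 0.0443), edgeR called 0 and DESeq2 called 4, with 5 lower at an unadjusted limma p under 0.05. The 6 lymphoid-primed progenitor markers were at 58.5% of the control mean, with 26205 and 18451 in the controls and 11953 and 14150.3 in the Bptf-cKO libraries. The 6 myeloid progenitor markers went the other way, at 183% of the control mean. They summed to 39632 and 10055 in the controls, which span a wider range than the 46881 and 43879 of the Bptf-cKO libraries. Of these 6, 5 had a positive log2 fold change (median 0.87) and 2 were higher at an unadjusted limma p under 0.05. Limma, edgeR and DESeq2 called 0 of them. Markers of mature lineages, removed by the sort, summed to 575 to 2046 in the controls and 652 to 1124 in the Bptf-cKO libraries.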
